A study of Mus musculus with 24 samples.

Results

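The genes described here are 8 transcripts through which the ERK (extracellular signal-regulated kinase) pathway restrains itself: 3 Sprouty genes (Spry1, Spry2 and Spry4), 2 Spred genes (Spred1 and Spred2) and 3 dual specificity phosphatase genes (Dusp4, Dusp5 and Dusp6). They were chosen by name, as 8 of the 49568 gene symbols in the count files, and each was read in the raw counts of 22 of the 24 hippocampal RNA-seq libraries. The rule names the genes and uses no expression value, but earlier results of these data were known when the members were chosen. All 8 passed the filter on low counts. Egr1, an immediate early transcription factor gene switched on by the same kinases, served with Spry4 as the point of comparison. The study had reported both as lower in enriched WT mice, so its own libraries give no independent test of them.

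The ERK cascade passes signals from receptors for growth factors such as BDNF and fibroblast growth factors through Ras, Raf and MEK to ERK, which acts on transcription directly and through kinases that include MSK1. Sprouty proteins are made in response to growth factor signals and hold the pathway back between the receptor and Raf. Spred proteins are membrane-bound relatives that bring neurofibromin to Ras and keep Ras inactive. Dual specificity phosphatases of this group remove phosphate from ERK itself, with Dusp6 acting mainly in the cytoplasm and Dusp4 and Dusp5 in the nucleus. Because ERK activity raises transcription of many of these genes, their mRNAs are often read as a record of recent pathway activity.

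The study crossed genotype with housing in 4 groups of 6 libraries, each made from the poly(A) RNA of whole mouse hippocampus. WT mice were compared with MSK1 kinase-dead (KD) mice, which are homozygous for an inactivating point mutation in the endogenous Rps6ka5 gene in every cell, on a C57-Bl/6J background. Mice of both genotypes lived in standard housing (SH) or in environmental enrichment (EE), which gave large cages with wheels and toys from before birth, and were 12 weeks old by the labels. The question was how experience shapes hippocampal transcription and how far MSK1 kinase activity is needed for it. No label ties a library to an animal, so p-values measure the spread between these libraries.

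The 22 libraries left out 33B and 34B, which the study removed after quality control. They held 6 WT SH, 5 WT EE, 6 KD SH and 5 KD EE samples, with 8911999 to 56752074 counts on genes and a median of 30265877.5. The study's own comparisons used 17 libraries, after 2, 9, 12, 31B and 35A had also been taken out for poor correlation with their group. Library names that end in a letter (31B, 33A and 35A in WT EE, 32A and 36A in KD EE) occur only among EE libraries of the 22, so whatever that letter marks cannot be told apart from housing except within EE. The markers of hippocampal neurons were present in every library, all 7 of 7. Markers of choroid plexus, 12 of 12 detected in every library, summed to 46.4 to 3003 CPM (counts scaled to library size) in SH and 64.9 to 5889 CPM in EE libraries. Thalamic markers stood apart in WT SH library 12 (364.7 CPM) and striatal markers in WT SH library 14 (164.6 CPM). The level of Rps6ka5 ranged from 19.3 to 29.5 CPM, and since the mutation leaves the transcript in place this level cannot check the genotype labels.

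The promoters of 3 members are shown because these genes gave the largest housing difference in the 22 libraries (Dusp5) or lay close to Spry4 in the 17 libraries of the study (Spred2 and Dusp6). Each line holds the 250 bases before the gene start as RefSeq places it, 5′ to 3′ on the coding strand, on GRCm38.p6, at chr19:53528895-53529144 for Dusp5, chr11:19924192-19924441 for Spred2 and chr10:99262981-99263230 for Dusp6, all on the plus strand. Capitals mark matches to a CArG box, the element bound by serum response factor, or to the core TGACG of the cAMP response element, which is bound by CREB, a substrate of MSK1. GENCODE starts 2 of the genes earlier, so that the last 36 bases of the Dusp5 window and the last 67 of the Spred2 window lie inside the gene in that annotation.
Dusp5: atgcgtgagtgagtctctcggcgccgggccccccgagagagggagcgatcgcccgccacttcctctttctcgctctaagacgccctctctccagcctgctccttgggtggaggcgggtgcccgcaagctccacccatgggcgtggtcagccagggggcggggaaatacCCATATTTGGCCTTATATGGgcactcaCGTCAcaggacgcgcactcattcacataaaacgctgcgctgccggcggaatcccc
Spred2: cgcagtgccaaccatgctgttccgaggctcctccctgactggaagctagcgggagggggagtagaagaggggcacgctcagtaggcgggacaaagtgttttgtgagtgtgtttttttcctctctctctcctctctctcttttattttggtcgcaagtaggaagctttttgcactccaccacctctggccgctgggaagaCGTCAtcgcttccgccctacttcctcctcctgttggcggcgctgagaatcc
Dusp6: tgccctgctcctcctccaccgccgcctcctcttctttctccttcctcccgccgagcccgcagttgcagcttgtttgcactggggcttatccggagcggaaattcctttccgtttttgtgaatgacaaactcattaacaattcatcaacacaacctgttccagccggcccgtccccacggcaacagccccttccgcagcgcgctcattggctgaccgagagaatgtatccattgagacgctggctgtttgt
In the Dusp5 promoter 2 CArG boxes began 82 and 72 bases before the RefSeq start and a TGACG core began 55 bases before it. The Spred2 promoter held 1 TGACG core, 51 bases before its RefSeq start and thus within those 67, and the Dusp6 window held no match. Both strands were searched for the full cAMP response element TGACGTCA, its core TGACG, which lies within the full one, the AP-1 site TGANTCA, the CArG box, the Egr site GCGTGGGCG and the ETS site CCGGAAGT. Of 32851 promoters of the same length, 1.47% held a CArG box, 17.8% TGACG, 1.55% TGACGTCA, 6.75% TGANTCA, 0.536% GCGTGGGCG and 2.88% CCGGAAGT. Promoter entries were matched for 6 of the 8 members, and 2 of these 6 (Dusp5 and Spred2) held any of the motifs. These are matches of letters and not measured binding sites.

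All 8 members are protein-coding genes and lie on separate chromosomes of GRCm38, with the GENCODE bounds given here. Spry1 lies at chr3:37639947-37644598 and Spry2 at chr14:105891947-105896819. Spred1 lies at chr2:117121374-117182279 and Spred2 at chr11:19924375-20024026. Dusp4 lies at chr8:34807297-34819894, Dusp5 at chr19:53529109-53542431 and Dusp6 at chr10:99263231-99267489. Spry4 is on chromosome 18.

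Levels between genes were compared as CPM per kilobase of exon, and by their medians the members fell into a higher and a lower set. Spred2 was highest among them with a median of 21.6 CPM per kilobase over the 22 libraries, followed by Spred1 (19.8), Spry2 (18.3) and Dusp6 (16.7). The ranges of neighbours in this order overlapped. Dusp4 (8.47) and Dusp5 (6.37) came next and also overlapped, and Spry4 (3.60) and Spry1 (3.39) were lowest and overlapped. The range of Dusp5, 4.78 to 13.1, also reached that of Dusp6 (lowest 12.5) and that of Spry4 (highest 4.84). Egr1 stood above all members at 37.6. Within the members, Dusp5 varied most across libraries, with a coefficient of variation of 30.6% of its mean CPM. Dusp4 (18.6%), Spry4 (16.8%) and Spred1 (15.9%) followed, and Spry2 varied least at 10.9%. The lowest single count of any member was 81, for Spry1, so counting error weighed most on that gene.

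**Figure D1:**
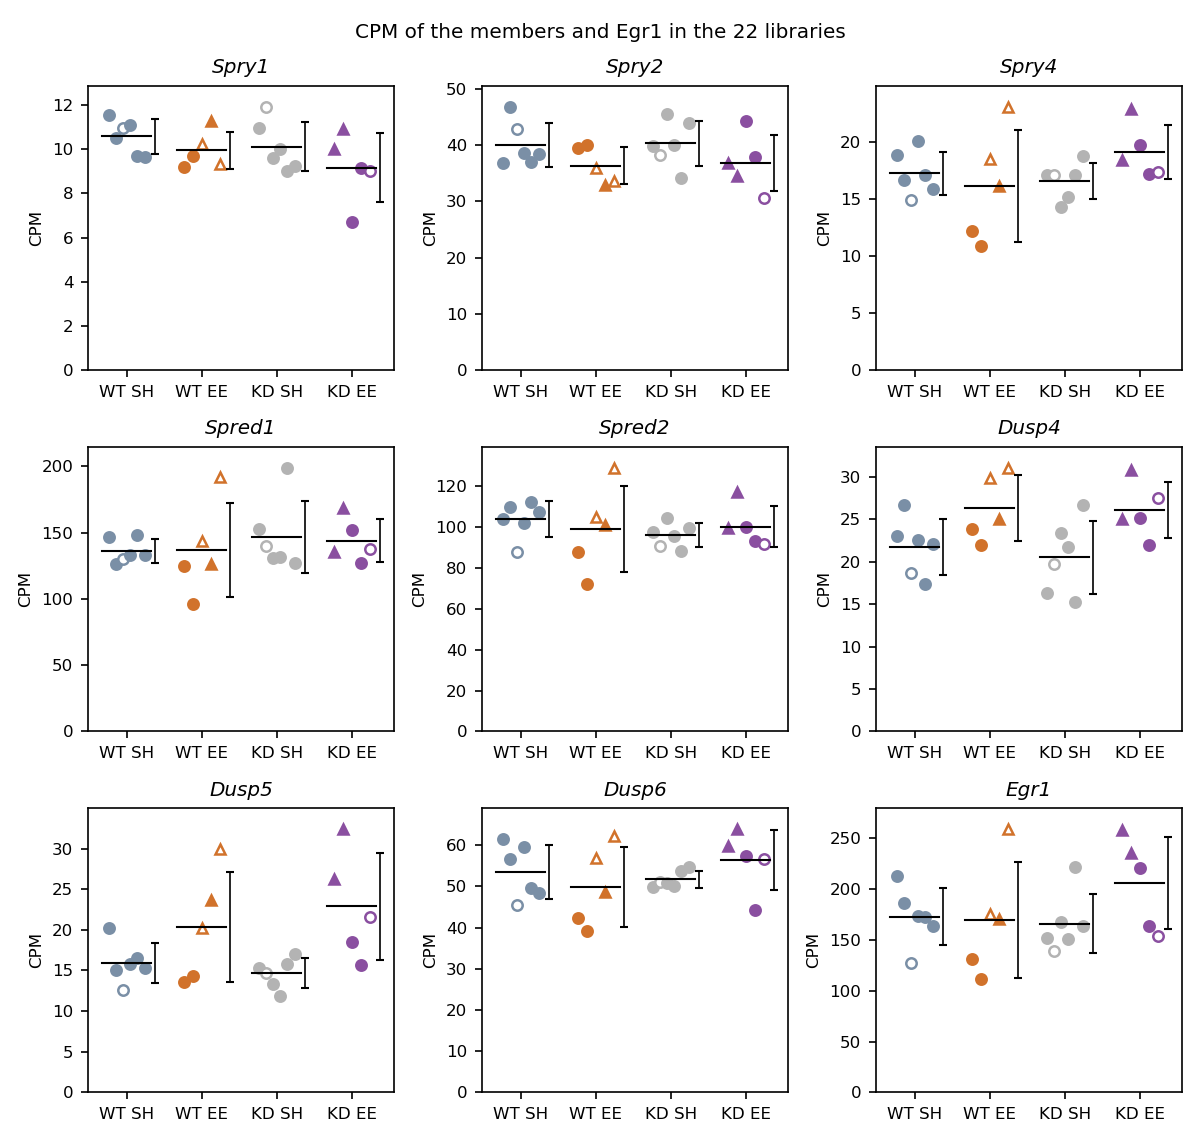
CPM (y axis, from 0) of the 8 members and Egr1 in each of the 22 libraries by group (x axis), where circles are libraries without and triangles with a letter in the name, open symbols are the 5 libraries the study also removed, bars are means and whiskers ± SD. Dusp5 reached 30.0 CPM in WT EE and 32.4 CPM in KD EE libraries with a letter, against at most 20.2 CPM in SH, while Spry4 ran from 10.9 to 23.0 CPM within WT EE alone.

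No member passed the test in any of the 7 comparisons of the 22 libraries, where a call needed a Benjamini-Hochberg adjusted p of at most 0.05 and a log2 fold change of at least 0.38 (1.3-fold) by edgeR's quasi-likelihood test. Over all 18482 genes tested the share called was 0% in WT EE against WT SH, 0% in KD EE against KD SH, 0% in WT SH against KD SH, 0% in WT EE against KD EE, 0% for the interaction of genotype and housing, 0% in WT against KD over both housings and 0.216% (40 genes) in EE against SH over both genotypes. At an unadjusted p under 0.05, 1 of the 8 members was past the threshold in WT EE against WT SH (background 8.33% of genes), 2 in KD EE against KD SH (background 9.16%) and 3 in EE against SH over both genotypes (background 16%). None of the 8 did so in WT SH against KD SH (background 5.69%), WT EE against KD EE (2.52%), the interaction (2.02%) or WT against KD over both housings (5.94%). With DESeq2 in place of edgeR, 1 member (Dusp5, EE against SH over both genotypes) was called and none in the other 6 comparisons. In that comparison DESeq2 called 212 of 35346 genes. The median log2 fold change of the 8 members was -0.08 in WT EE against WT SH and 0.09 in KD EE against KD SH, beside 0.01 and 0.003 over all genes.

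Dusp5, which encodes the inducible nuclear ERK phosphatase, gave the largest housing difference among the members. In WT SH its lowest, median and highest levels were 12.6, 15.5 and 20.2 CPM, and the 5 WT EE libraries stood at 13.6, 14.3, 20.2, 23.7 and 30.0 CPM. In KD SH they were 11.8, 15.02 and 17.02 CPM, and the KD EE libraries stood at 15.6, 18.6, 21.6, 26.3 and 32.4 CPM. The groups overlapped in both genotypes, with 3 of 5 WT EE and 4 of 5 KD EE libraries above every SH library of their genotype. The mean was 15.9 ± 2.46 CPM (SD, n = 6) in WT SH against 20.3 ± 6.83 CPM (n = 5) in WT EE, a log2 fold change of 0.36 (SE 0.19, 95% interval -0.04 to 0.76, adjusted p = 0.654 by edgeR). In KD it was 14.7 ± 1.85 CPM (n = 6) against 22.9 ± 6.61 CPM (n = 5), a log2 fold change of 0.66 (SE 0.20, interval 0.25 to 1.06, adjusted p = 0.458 by edgeR). Over both genotypes the log2 difference was 0.51 (SE 0.14, adjusted p = 0.0951 by edgeR), and DESeq2 gave 0.50 with an adjusted p of 0.0107, past its threshold. With 1 library left out, the WT value ran from 0.17 (without 35A) to 0.48 (without 16). In whole tissue, a different number of cells of a type and a different amount of RNA per cell cannot be told apart.

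The higher Dusp5 levels moved with the letter in the library name. Within WT EE the 3 lettered libraries had 20.2 to 30.0 CPM and the 2 unlettered ones 13.6 and 14.3 CPM. Within KD EE the 2 lettered libraries had 26.3 and 32.4 CPM and the 3 unlettered ones 15.6 to 21.6 CPM. With the 5 lettered libraries left out, the log2 difference between EE and SH over both genotypes was 0.07 (SE 0.10, adjusted p = 0.796 by edgeR), and it was -0.19 in WT and 0.33 in KD. The part of the letter in the Dusp5 difference was not tested. With the choroid plexus marker score as a covariate the pooled difference was 0.63 (adjusted p = 0.0950 by edgeR), and without WT SH libraries 12 and 14 it was 0.48 (adjusted p = 0.179 by edgeR).

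Dusp4, a nuclear phosphatase that acts on ERK and other MAP kinases, differed in the same direction by a smaller amount. WT SH libraries had a lowest, median and highest level of 17.4, 22.3 and 26.7 CPM, and WT EE libraries stood at 21.95, 23.9, 25.1, 29.8 and 31.1 CPM. KD SH libraries had 15.2, 20.7 and 26.7 CPM, and KD EE libraries stood at 21.9, 25.1, 25.1, 27.5 and 30.8 CPM. Only 2 of the 5 EE libraries lay above all SH libraries in each genotype. The log2 fold change was 0.28 (SE 0.13, adjusted p = 0.575 by edgeR) in WT and 0.34 (SE 0.13, adjusted p = 0.504 by edgeR) in KD. Over both genotypes it was 0.31 (SE 0.09, 95% interval 0.12 to 0.50, adjusted p = 0.108 by edgeR). Without the lettered libraries the pooled difference was 0.17 (SE 0.11, interval -0.06 to 0.41).

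Dusp6, the cytoplasmic ERK phosphatase, had no difference beyond its spread in the 22 libraries, and its WT EE libraries were spread widely. Levels in WT SH had a lowest, median and highest of 45.5, 53.1 and 61.4 CPM, and WT EE libraries stood at 39.2, 42.4, 48.6, 56.9 and 62.3 CPM. Levels in KD SH lay close together, from 49.7 to 54.6 CPM with a median of 50.9, and KD EE libraries stood at 44.4, 56.5, 57.4, 59.9 and 63.9 CPM. In KD, 4 of the 5 EE libraries were above every SH library, while the WT groups overlapped on both sides. The log2 fold change was -0.10 (95% interval -0.31 to 0.11) in WT and 0.13 (interval -0.08 to 0.34) in KD.

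Spry4, the Sprouty gene taken as the point of comparison, had a pattern like that of Dusp6. Its lowest, median and highest levels were 14.9, 16.9 and 20.05 CPM in WT SH, and WT EE libraries stood at 10.9, 12.2, 16.1, 18.5 and 23.0 CPM. In KD SH they were 14.3, 17.04 and 18.7 CPM, and KD EE libraries stood at 17.1, 17.4, 18.4, 19.7 and 22.8 CPM. The WT EE libraries thus held both the lowest and the highest Spry4 level of the 22, and the lowest were 16 and 17, without a letter. The log2 fold change was -0.09 (SE 0.14, interval -0.37 to 0.19) in WT and 0.21 (SE 0.14, interval -0.07 to 0.49) in KD, with an interaction of -0.30 (SE 0.19, interval -0.70 to 0.10).

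Spry2, which encodes another inducible Sprouty protein, was slightly lower in EE in both genotypes. WT SH levels had a lowest, median and highest of 36.8, 38.4 and 46.7 CPM, and WT EE libraries stood at 32.8, 33.5, 35.9, 39.4 and 39.9 CPM. KD SH levels were 34.2, 39.9 and 45.4 CPM, and KD EE libraries stood at 30.6, 34.5, 36.8, 37.8 and 44.3 CPM. The groups overlapped in both genotypes. The log2 difference over both genotypes was -0.14 (SE 0.06, adjusted p = 0.266 by edgeR), and -0.05 without the lettered libraries. Spry1, whose protein restrains growth factor signals in the same way, ranged from 6.73 to 11.9 CPM over the 22 libraries. Its lowest level was in KD EE library 7, and its log2 difference between EE and SH was -0.11 (SE 0.07, interval -0.26 to 0.04).

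The Spred genes differed little in mean between housings. Spred1, whose human counterpart is mutated in Legius syndrome, had a mean of 136 ± 9.05 CPM (SD, n = 6) under standard housing of WT mice and of 137 ± 35.4 CPM (SD, n = 5) under enrichment. The KD SH mean was 147 ± 27.0 CPM (SD, n = 6), a group in which library 5 reached 198.8 CPM, and the KD EE mean was 144 ± 16.3 CPM (SD, n = 5). The WT EE group held both the lowest Spred1 level of the 22 libraries, 96.0 CPM in 17, and a level of 192.2 CPM in 35A. The Spred2 means were 104 ± 8.76 CPM in WT SH, 99.0 ± 21.1 CPM in WT EE, 96.2 ± 5.77 CPM in KD SH and 100 ± 10.1 CPM in KD EE (SD). The log2 difference between EE and SH was -0.01 (interval -0.21 to 0.19) for Spred1 and close to 0 (interval -0.15 to 0.14) for Spred2.

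Genotype made no difference past the threshold in either housing. In SH, WT differed from KD by log2 fold changes of -0.10 for Spred1 to 0.13 for Dusp5, with 95% intervals of -0.37 to 0.16 and -0.26 to 0.51. In EE, 6 of the 8 members had a lower mean log2 level in WT than in KD, as had 49.0% of all genes. The largest such difference was that of Spry4 (-0.24, SE 0.14, interval -0.53 to 0.06), followed by Dusp6 (-0.17, interval -0.40 to 0.05) and Dusp5 (-0.17, interval -0.59 to 0.25). Egr1 stood at -0.28 (interval -0.70 to 0.14) in the same comparison. The interaction was estimated at -0.30 for Dusp5, -0.23 for Dusp6 and -0.34 for Egr1, each with an interval that included 0. These intervals include differences of the size seen between housings.

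The WT values for Spry4, Dusp6 and Spred2 turned on which EE libraries were kept. In the 17 libraries of the study WT EE held 3 libraries (16, 17 and 33A), and Spry4 had 13.1 ± 2.75 CPM there against 17.7 ± 1.72 CPM (SD, n = 5) in WT SH. The log2 fold change was -0.43 (SE 0.12, adjusted p = 0.0535 by edgeR), and between -0.62 (without 33A) and -0.32 (without 17) with 1 library left out. Spred2 followed at -0.30 (SE 0.09, adjusted p = 0.0559 by edgeR) and Dusp6 at -0.34 (SE 0.10, adjusted p = 0.0605 by edgeR). With 1 library left out, Spred2 ran from -0.42 (without 33A) to -0.19 (without 17) and Dusp6 from -0.44 to -0.28 (without the same libraries). Without 33A, which left 16 and 17 in WT EE, Spry4 (adjusted p = 0.00578 by edgeR) and Spred2 (adjusted p = 0.00549 by edgeR) passed the test. Over the 17 libraries left out in turn, edgeR's adjusted p ran from 0.00578 to 0.431 for Spry4, from 0.00549 to 0.529 for Spred2 and from 0.0180 (without KD EE 8) to 0.389 for Dusp6. With all 17 kept, 3 of 8 members had an unadjusted p under 0.05 in WT EE against WT SH, all of them lower in EE, where 13.6% of 18701 genes did. DESeq2 on the same 17 libraries gave adjusted p values of 0.0269 for Spry4, 0.0296 for Spred2 and 0.0371 for Dusp6. Spry4 was called by it, among 731 of 34264 genes, while Spred2 at -0.30 and Dusp6 at about -0.34 stayed under the fold threshold there. Egr1 had a log2 fold change of -0.40 (adjusted p = 0.229 by edgeR) in this comparison, and of -0.59 without 33A (adjusted p = 0.0449 by edgeR).

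Between the EE groups of the 17 libraries Spry4 was lower in WT than in KD by 0.57 on the log2 scale (SE 0.13, interval -0.84 to -0.30, adjusted p = 0.267 by edgeR), and DESeq2 gave an adjusted p of 0.0425. Egr1 stood at -0.67 (SE 0.16, adjusted p = 0.383 by edgeR, adjusted p = 0.0257 by DESeq2). DESeq2 called both genes here, among 18 of 34264. The study had picked out both genes in this comparison of its own libraries, so these values repeat that choice. Spry4 also had an interaction of -0.68 (SE 0.17, adjusted p = 0.883 by edgeR). The 5 libraries had been removed on their expression, and without them the SD of Spry4 was 2.75 in place of 4.90 CPM in WT EE and 2.46 in place of 2.34 CPM in KD EE. Between the same EE groups Dusp5 stood at -0.43 and Dusp4 at -0.12, both with intervals that included 0. Between housings in the 17 libraries, their WT values were close to 0, at 0.06 and 0.08. That of Dusp5 ran from -0.26 (without 33A) to 0.21 (without 16). Their KD values were 0.68 (adjusted p = 0.119 by edgeR) and 0.31 (adjusted p = 0.418 by edgeR). With 1 library left out, the KD value of Dusp5 ran from 0.48 (without 36A) to 0.83 (without 8). Its adjusted p by edgeR ran from 0.0160 (without 8), which passed the test, to 0.464.

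The libraries without a letter gave a like order in WT. Spry4 differed by -0.57 (SE 0.12, adjusted p = 0.0184 by edgeR), which passed the test, as 269 of 19153 genes did, but with 2 WT EE libraries, 16 and 17. These 2 had choroid plexus marker sums of 5401 and 4211 CPM, beside 77.4 and 64.9 CPM in libraries 31B and 35A, where Spry4 was highest in WT EE, and 5475 CPM in 33A. In KD EE, library 9 had the lowest choroid plexus sum (224.5 CPM) with Spry4 at 17.4 CPM. Library 36A had the highest sum of that group (5889 CPM) and its highest Spry4 level (22.8 CPM). With the choroid plexus score as a covariate in the 22 libraries, the Spry4 difference was 0.01 (SE 0.12) in WT. It was 0.39 (SE 0.13, adjusted p = 0.279 by edgeR) in KD, with an interaction of -0.38 (SE 0.17, adjusted p = 0.9998 by edgeR). The part of choroid plexus tissue in the Spry4 values was not tested. Spred2 differed by -0.37 (adjusted p = 0.0403 by edgeR), just under the fold threshold, and Dusp6 by -0.39 (adjusted p = 0.0749 by edgeR). In KD, with libraries 7, 8 and 9, the same 3 genes stood at 0.13, -0.01 and 0.03.

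**Figure D2:**
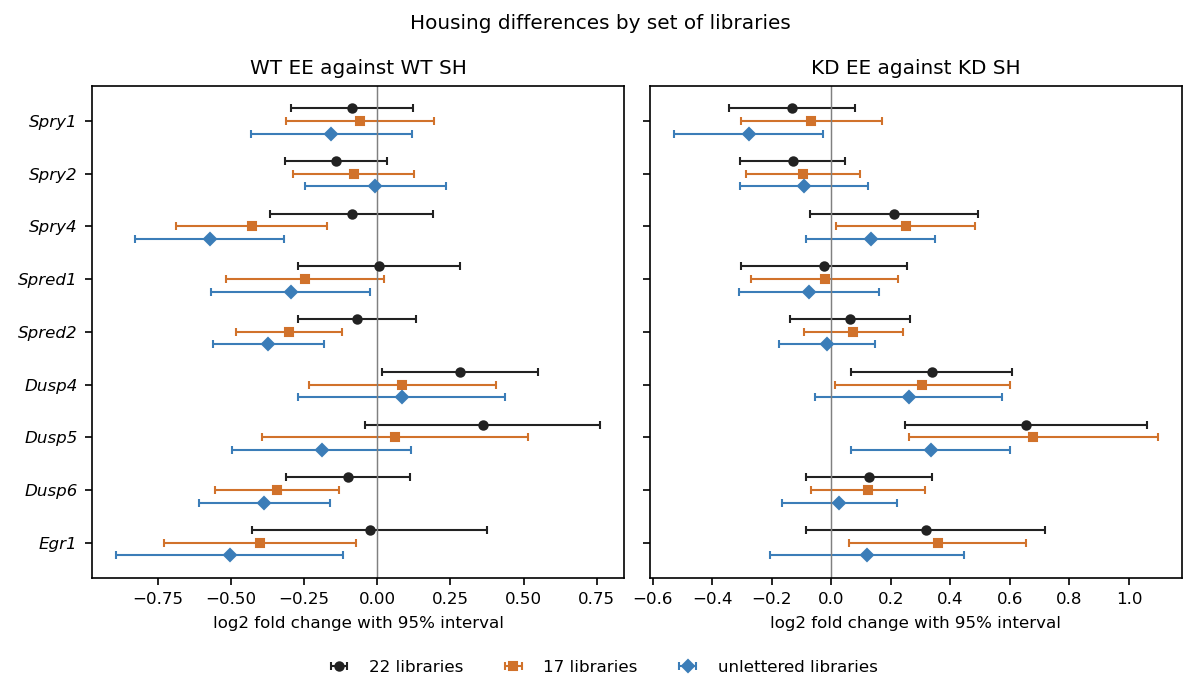
Log2 fold change of EE against SH (x axis) with its 95% interval for each member and Egr1 in WT and in KD, from edgeR fits on the 22 libraries, on the 17 libraries of the study and on the libraries without a letter. Spry4 in WT moves from -0.09 to -0.43 and -0.57 across the 3 sets, while Dusp5 in KD stands at 0.66, 0.68 and 0.33.

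Across libraries, Dusp6, Dusp5, Spred1 and Spred2 varied together with Spry4, and these 5 genes varied with Egr1, while Dusp4, Spry1 and Spry2 did not pass by Pearson's r. Relations were computed on log2 CPM for each of the 7 other members with Spry4 and for all 8 with Egr1, 15 in all, with 2-sided permutation tests of 100000 resamples and Benjamini-Hochberg adjustment over the 15. The closest was that of Dusp6 with Spry4, with Pearson's r = 0.88 and Spearman's rho = 0.84 (permutation p = 1e-05 for both, the smallest the resamples could give, adjusted p = 7.5e-05). Spred2 (r = 0.74, rho = 0.51), Spred1 (r = 0.71, rho = 0.61) and Dusp5 (r = 0.70, rho = 0.80) also passed with Spry4, each with an adjusted permutation p of at most 0.000867 for r. Dusp4 (r = 0.37, rho = 0.50, adjusted permutation p = 0.136 for r and 0.0278 for rho), Spry1 (r = 0.001, rho = -0.02) and Spry2 (r = -0.32, rho = -0.41) did not pass by r.

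Egr1 gave a like order. Dusp6 (r = 0.83, rho = 0.81) and Spry4 (r = 0.79, rho = 0.73) were closest to Egr1, followed by Dusp5 (r = 0.73, rho = 0.74), Spred1 (r = 0.72, rho = 0.58) and Spred2 (r = 0.69, rho = 0.67). All 5 passed, with adjusted permutation p values for r between 7.5e-05 and 0.00045. Dusp4 (r = 0.34), Spry1 (r = -0.19) and Spry2 (r = -0.28) had adjusted permutation p values of 0.162, 0.442 and 0.248 for r. Dusp4 passed by rho (0.48, adjusted permutation p = 0.0370), while Spry1 and Spry2 did not. In all, 9 of the 15 relations passed by r and 11 by rho. Without the 2 libraries farthest from the median (16 and 17 for Spry4, 32A and 35A for Egr1), 10 of 15 passed and Dusp6 kept r = 0.79 with Spry4 and r = 0.80 with Egr1. Dusp4 with Spry4 was among the 10 (r = 0.52, adjusted permutation p = 0.0279).

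The relations were also read within groups and within the libraries without a letter. After each group's mean was subtracted, 10 of 15 passed, with r = 0.86 for Dusp6 and Spry4 and r = 0.82 for Dusp6 and Egr1. Dusp4 with Spry4 was again among the 10 (r = 0.45, adjusted permutation p = 0.0487). In the 17 libraries without a letter 8 of 15 passed, with r = 0.84 for Dusp6 and Spry4 and r = 0.78 for Dusp6 and Egr1. With both steps together none passed, the highest being r = 0.70 for Dusp6 and Spry4 (permutation p = 0.00384, adjusted p = 0.0576). The 5 lettered libraries were too few for a correlation of their own.

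**Figure D3:**
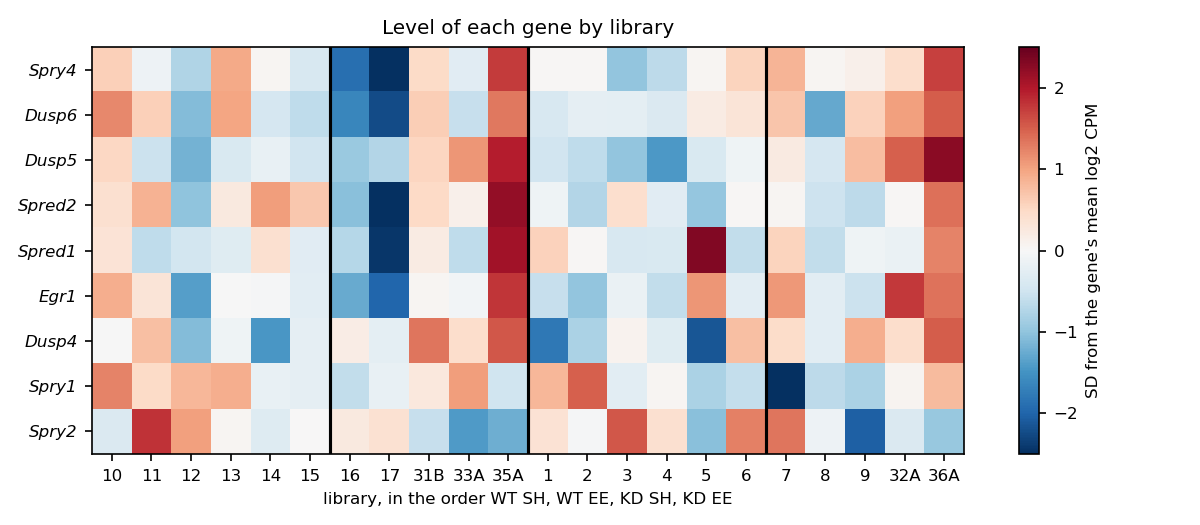
Each library's log2 CPM for each gene as SDs from that gene's mean over the 22 libraries (colour, ends at ±2.5), libraries in columns by group and genes in rows. Spry4, Dusp6, Dusp5, Spred2, Spred1 and Egr1 are low together in WT EE libraries 16 and 17 and high together in 35A and 36A, while Spry1 and Spry2 do not share this pattern.

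**Figure D4:**
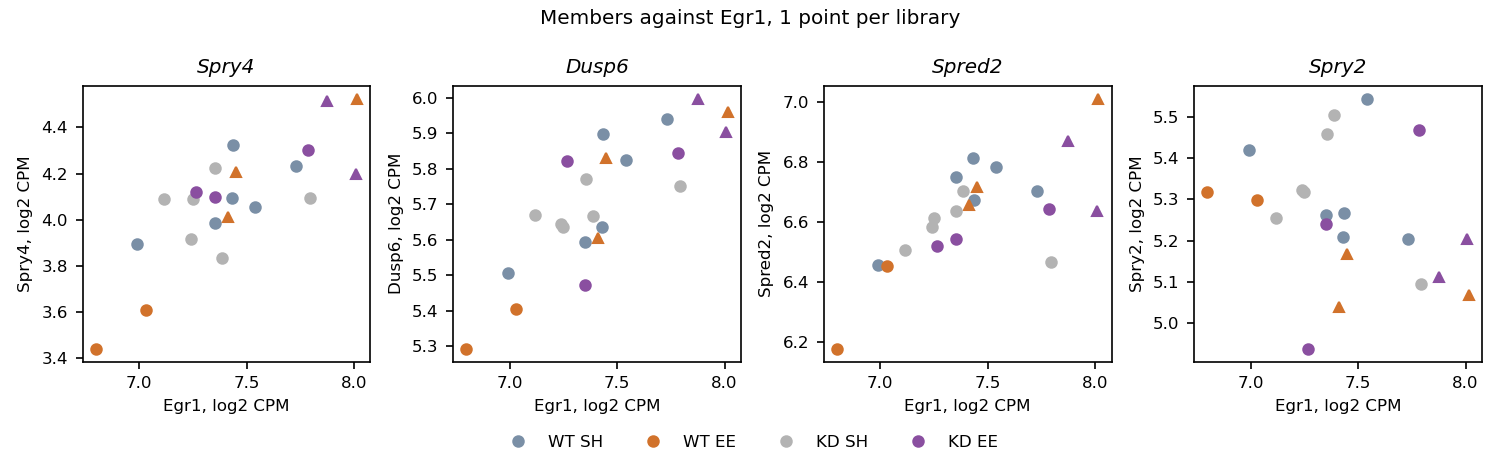
Log2 CPM of Spry4, Dusp6, Spred2 and Spry2 (y axes) against log2 CPM of Egr1 (x axis), 1 point per library, coloured by group, with triangles for lettered libraries. Spry4 (r = 0.79), Dusp6 (r = 0.83) and Spred2 (r = 0.69) rise with Egr1 over the 22 libraries, and Spry2 (r = -0.28) does not.

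Among 15149 genes with a mean of at least 1 CPM, the genes most like Spry4 by group-centred Pearson's r over the 22 libraries were Zmym1 (0.93), Homer2 (0.88), Usp31 (0.86), Dusp6 (0.86) and RP23-462D5.5 (0.85). Those most like Dusp6 were Mfhas1 (0.89), Zmym1 (0.88), Spry4 (0.86), Mfap3 (0.86) and Fem1b (0.86). Dusp5 ranked 27, Spred2 60, Egr1 100 and Spred1 127 in likeness to Spry4, against 1896 for Dusp4, 5404 for Spry1 and 12650 for Spry2. With Egr1 the ranks were 115 for Dusp6, 254 for Dusp5, 270 for Spred1, 283 for Spry4 and 357 for Spred2. Many genes with other roles therefore followed the same libraries, and the members were not the genes closest to Egr1.

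Other genes of the pathway gave no call in any of the 7 comparisons. Of the other phosphatases that act on ERK (Dusp1, Dusp2, Dusp7 and Dusp9), none of 4 had an unadjusted p under 0.05 between housings in either genotype (background 8.33% in WT and 9.16% in KD). Dusp1 stood at -0.14 (SE 0.14) in WT and 0.11 (SE 0.14) in KD on the log2 scale. Dusp2 and Dusp9 had means under 1 CPM. The phosphatases directed at JNK and p38 (Dusp8, Dusp10 and Dusp16) had log2 differences between EE and SH from -0.11 (Dusp16 in KD) to 0.07 (Dusp16 in WT). Spred3, the third Spred gene, had 60.9 ± 2.98 CPM in WT SH and 66.5 ± 6.64 CPM in WT EE, and its pooled log2 difference was 0.14 (SE 0.05, adjusted p = 0.170 by edgeR), while Spry3 stood at -0.06 (SE 0.08).

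Of the 14 immediate early genes, 13 were higher in KD EE than in KD SH, of which 7 had an unadjusted p under 0.05, with a median log2 difference of 0.40. Over all genes, 9.16% had such a p in this comparison and 49.1% were lower in KD EE. In WT EE against WT SH 7 were higher and 7 lower, with a median of -0.02, where 47.9% of all genes were lower. Between genotypes, all 14 were higher in WT than in KD under SH, 5 at an unadjusted p under 0.05, with a median of 0.27. Over all genes, 5.69% had such a p under SH and 52.2% were lower in WT. Under EE 7 of the 14 were higher and 7 lower, with a median of -0.01. Within EE their summed level was mostly higher in the 5 lettered libraries, at 797 to 987 CPM. It was 572 and 570 CPM in WT EE libraries 16 and 17 and 618 to 812 CPM in KD EE libraries 7, 8 and 9. The lettered and unlettered ranges overlapped. The SH libraries, none of them lettered, had 531 to 889 CPM in WT and 536 to 683 CPM in KD. The part of the letter in these differences was not tested. Npas4, a neuronal activity-dependent transcription factor gene, had the lowest p of the list between housings in WT and stood at -0.30 (SE 0.13) in WT and -0.07 (SE 0.13) in KD. Fosl2, a subunit of AP-1, stood at 0.35 (SE 0.17) in WT and 0.44 (SE 0.17) in KD, Junb at -0.05 (SE 0.15) and 0.40 (SE 0.15), and Arc, a synaptic plasticity gene, at -0.05 (SE 0.24) and 0.52 (SE 0.24). None of the 14 passed after adjustment. The interaction of genotype and housing had an unadjusted p under 0.05 for 1 of the 14 (background 2.02% of genes), Ier2 (-0.49, SE 0.22), named after its value was seen.

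Genes of the kinase cascade were mostly lower in EE, 10 of 14 over both genotypes. Mapk3, which encodes ERK1, stood at -0.15 (SE 0.05, adjusted p = 0.152 by edgeR) and Rps6ka5 at -0.17 (SE 0.06, adjusted p = 0.164 by edgeR). Rps6ka1 (-0.15, SE 0.06) and Araf (-0.08, SE 0.03) were also among the lower ones. For the counts below, 16% of all genes had an unadjusted p under 0.05 between housings over both genotypes. In WT alone 8.33% of genes did, and 2.02% did for the interaction. Among 8 receptors, Igf1r (0.15, SE 0.06) was the 1 gene with such a p over both genotypes and Fgfr2 (-0.18, SE 0.09) the 1 gene in WT alone. Ntrk2, the BDNF receptor, stood at 0.03 (SE 0.04) over both genotypes. Of 6 ligands, Bdnf had a pooled log2 difference of 0.19 (SE 0.07, adjusted p = 0.160 by edgeR) and Hbegf one of -0.15 (SE 0.06), the 2 with an unadjusted p under 0.05. Of 8 binding partners, Tesk1, a kinase that binds Sprouty, stood at 0.12 (SE 0.05, adjusted p = 0.248 by edgeR). Of 7 other feedback regulators, Lrig1, which lowers receptor levels, had an interaction of -0.31 (SE 0.13), and Errfi1, an inhibitor of EGF receptors, was the 1 gene with an unadjusted p under 0.05 over both genotypes (0.24, SE 0.10). Of 7 ERK-responsive transcription factors and targets, Etv4 (0.01, SE 0.09) and Etv1 (-0.05, SE 0.05) had intervals that included 0, and Etv5 was the 1 gene with an unadjusted p under 0.05 (0.14, SE 0.06). Araf, Hbegf, Errfi1 and Etv5 were also named after their values were seen.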

How the data were processed

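RNA from whole hippocampus was read as poly(A) TruSeq v2 libraries, 150 bp paired-end. Per the labels and the study's methods, reads were trimmed with Skewer, aligned to GRCm38 with STAR 2.5 and counted with HTSeq, and the deposited raw counts per gene symbol were used here. The kit does not mark strand, so reads of overlapping genes on opposite strands cannot be told apart. HTSeq's summary rows (10.0 to 14.2% of read pairs without a feature and 3.77 to 4.41% ambiguous) were left out of library sizes. A table of values normalized by the authors was not used. The members and lists were chosen with earlier results of these data known.

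Genes were filtered with filterByExpr and scaled by TMM, and edgeR 4.0.16 (R 4.3.3, limma 3.58.1) fitted the 4 group means with quasi-likelihood tests. Alternatives were DESeq2 1.42.0, the study's 17 libraries, all 24, other filters, a choroid plexus covariate and leaving out each library. CPM used TMM library sizes, and 3 counts equalled 0.0542 to 0.334 CPM, counting error only. No 2 of the 24 files were identical (276 pairs). Correlations used log2 CPM with a prior count of 2 and permutation tests (Python 3.11.15). Exon lengths were those of GENCODE vM21. Beyond the members, Egr1 and Rps6ka5, each list's genes with the lowest p in WT EE against WT SH or WT against KD, and its highest in CPM, were eligible to be named, as were the 5 genes most like Spry4 and Dusp6. A listed gene is not reported here. Scripts were tested on simulated data.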

Additional observations from a re-analysis of the deposited data

Results flagged for a closer look

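In the KD SH group, library 5 stood far from the other 5 for both Spred1 and Egr1. Spred1 had 198.799 CPM there, against 152.508 CPM in the next library, and Egr1 had 221.696 CPM, against 167.263 CPM in the next. In both cases the gap was over the critical share of the group's range for 6 samples. Of 36 gene and group combinations tested in this way these were the 2 found, and chance gives about 1 in 20. Dusp4 was lowest of the 22 libraries in the same library, at 15.2 CPM, while Spry4 (17.1 CPM), Dusp5 (15.7 CPM) and Dusp6 (53.8 CPM) were within the range of their group. Library 5 also had the lowest sum of hippocampal neuron markers of the 22 libraries, 1668 CPM against 1967 CPM in the next, and a thalamic marker sum of 156 CPM, the highest after library 12, while its oligodendrocyte marker sum, 4999 CPM, was the highest in KD SH. No cause was tested.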

How the results depend on the processing

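Which libraries and which test were used changed the counts of called genes, which were 0 in the 22 libraries except 40 in EE against SH over both genotypes (pooled). The 17 libraries gave 667 between housings in WT, 322 in KD and 717 pooled. DESeq2 on the 17, chosen after seeing the data, gave 731, 408 and 776, with 3 between genotypes in SH, 18 in EE, 1 over both housings and 2 for the interaction, and 3 calls among the members and Egr1 (Spry4 in 2 comparisons and Egr1 in 1). DESeq2 on the 22 gave 22 between housings in WT, 4 in KD, 212 pooled and 2 between genotypes in SH, with 1 member call (Dusp5). Adjusted p alone gave 73 pooled. All 24 libraries gave 1 between housings in WT, as did no filter on low counts, which also gave 1 between genotypes in SH. The choroid plexus covariate gave 8 pooled. Libraries without a letter gave 269 in WT and 67 pooled, with 1 member call (Spry4). Leaving out libraries 12 and 14 gave 3 pooled. With 1 library left out, the pooled count ran from 2 (KD SH 1, WT SH 10, WT EE 16 or KD EE 36A out) to 184 (KD SH 2 out), the WT housing count from 0 to 4 (KD EE 36A out), and member calls were 0. The causes were not tested.

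Of 726 member values under the other settings, 676 kept direction and side of the threshold and 45 changed sign, while 5 came past the threshold, each given above. With the choroid plexus covariate these were WT housing Spry4 (0.0084) and Egr1 (0.082), KD housing Spred1 (0.13), genotype in EE Dusp4 (-0.012), interaction Spry2 (0.0089) and Spred1 (-0.037), pooled housing Spred1 (0.11) and Spred2 (0.082). In the 17 libraries these were WT housing Spred1 (-0.25), genotype in EE Dusp4 (-0.12), interaction Spry2 (0.015) and Spred1 (-0.22), pooled housing Spry4 (-0.090) and Dusp6 (-0.11) and Egr1 (-0.021), pooled genotype Spred2 (-0.046) and Dusp4 (-0.012). With all 24 these were WT housing Spred1 (-0.0040), genotype in EE Dusp4 (-0.016). Without lettered libraries these were WT housing Spred1 (-0.30) and Dusp5 (-0.19), KD housing Spred2 (-0.014), genotype in EE Spry2 (0.073) and Dusp4 (-0.10), interaction Spry2 (0.084) and Spred1 (-0.22), pooled housing Spry4 (-0.22) and Dusp6 (-0.18) and Egr1 (-0.19), pooled genotype Spry2 (0.031) and Spred2 (-0.065) and Dusp4 (-0.013). With DESeq2 on the 17 these were WT housing Spred1 (-0.25), genotype in EE Dusp4 (-0.13), interaction Spry1 (-0.0014) and Spry2 (0.0086) and Spred1 (-0.23), pooled housing Spry4 (-0.092) and Dusp6 (-0.11) and Egr1 (-0.024), pooled genotype Spred2 (-0.048) and Dusp4 (-0.011). With no filter these were interaction Spry2 (0.0014). Without 12 and 14 these were pooled housing Dusp6 (-0.025), pooled genotype Dusp5 (0.0069).

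With 1 library left out, 79 of 1386 values changed sign, all of them uncalled, with ranges for WT housing Spry4 -0.26 to 0.021, Spred1 -0.16 to 0.11, Spred2 -0.19 to 0.021, Egr1 -0.24 to 0.090, for KD housing Spred1 -0.083 to 0.079, for genotype in SH Spry2 -0.060 to 0.026, Egr1 -0.012 to 0.16, for genotype in EE Spry2 -0.078 to 0.047, Spred1 -0.23 to 0.031, Spred2 -0.13 to 0.076, Dusp4 -0.050 to 0.090, for interaction Spry1 -0.042 to 0.11, Spry2 -0.068 to 0.058, Spred1 -0.13 to 0.13, Dusp4 -0.14 to 0.015, for pooled housing Spry4 -0.025 to 0.12, Spred1 -0.092 to 0.043, Spred2 -0.065 to 0.040, Dusp6 -0.037 to 0.053, for pooled genotype Spry2 -0.044 to 0.018, Spred2 -0.010 to 0.095, Dusp5 -0.11 to 0.060. No paired analysis was possible because the groups share no replicate numbers.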

Other observations

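The members were also compared with each other after group means were subtracted. Spry4 ranked 3 among the genes most like Dusp6, and Dusp5 ranked 19, Egr1 23, Spred2 182, Spred1 531 and Dusp4 679. Spry1 and Spry2 had no relation past the threshold with Spry4 or Egr1 in any of the sets of libraries used.

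Several marker lists of other cell types differed with housing in the same libraries. All 12 choroid plexus markers were higher in EE over both genotypes at an unadjusted p under 0.05, with a median log2 difference of 2.34, and Ttr, the most abundant of them, had 2.39 (SE 1.09, adjusted p = 0.288 by edgeR). Oligodendrocyte markers were lower in 4 of 4 cases, 3 at an unadjusted p under 0.05 (median -0.18), oligodendrocyte precursor markers in 4 of 4 (median -0.12), microglial markers in 3 of 4 (median -0.12) and astrocyte markers in 3 of 5 (median -0.11). Meningeal markers were higher in 6 of 6 (median 0.43), endothelial markers in 3 of 5 (median 0.02) and hippocampal neuron markers in 2 of 7 (median -0.04). Thalamic markers were lower in 5 of 5 (median -0.21) and striatal markers in 5 of 6 (median -0.10). By genotype, striatal markers were lower in 5 of 6 in WT (median -0.29) but higher in 5 of 6 in KD (median 0.09). Of all genes 47.9% were lower in EE in WT and 49.1% in KD. WT SH libraries 12 (thalamic, 364.7 CPM) and 14 (striatal, 164.6 CPM) stood apart. The median thalamic sum was 105.5 CPM in WT SH and 102.9 CPM in WT EE. Their part in the member values was not tested.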
